A study of Mus musculus with 9 samples.

Results

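The 10 genes *Nr1d1*, *Nr1d2*, *Per1*, *Per2*, *Per3*, *Dbp*, *Tef*, *Arntl*, *Clock* and *Cry1* of the circadian clock were followed through 9 subcutaneous tumors of KLN205, a cell line of murine lung squamous cell carcinoma. They are 10 of 19481 genes counted, and all 10 were among the 14725 genes that passed the filter on low counts. The list was drawn up around *Nr1d1*, which was chosen by its difference between knockdown and control tumors, so comparisons of the members with control are given here as a description, and the counts of calls printed for them are not read as evidence. The difference between both shRNAs and the relations of *Arntl* to members other than *Nr1d1* were tested, and the promoter sequences were described. The question was whether the clock genes sat at different phases in different tumors, as different hours of harvest would give.

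The KLN205 cells carried an integrated SMARTvector lentivirus, selected with puromycin, from which doxycycline induces an shRNA. In 3 tumors it was a control shRNA (shControl, called control here), in 3 it was shRNA sh2 against *Tmprss11b* and in 3 it was sh3 against the same gene. The hosts were female DBA/2 mice of 6 to 8 weeks at injection into the flank, all 3 groups drank doxycycline from a mean tumor volume of 100 mm3 onwards, and tumors were taken on day 50. The RNA came from whole tumors, which hold host stroma and immune cells beside the carcinoma cells, and the hour of day and the light cycle at harvest are not given in the sources used here. Libraries held 20653219 to 24047784 counts on genes, so that 3 counts corresponded to 0.123 to 0.152 CPM (the count of a gene relative to the total of its tumor, scaled by the TMM method), a floor that covers counting error only. The targeted gene, listed as *Tmprss11bnl*, was at 18 to 51 counts in control, 2 to 7 in sh2 and 4 to 10 in sh3 tumors. The ribosomal transcript *Rn45s* led every library, with 1.14% to 1.67% of counts in 8 tumors and 3.16% in sh3 replicate 2.

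The clock is a feedback loop of transcription. BMAL1, the product of *Arntl*, pairs with CLOCK, binds E-boxes and drives the *Per* and *Cry* genes, the *Nr1d* genes and the output factors *Dbp* and *Tef*. PER and CRY proteins then inhibit that pair, REV-ERB proteins made from *Nr1d1* and *Nr1d2* repress *Arntl*, *Clock* and *Cry1* through ROR elements, and DBP and TEF activate genes with D-boxes, *Per3* among them. In tissues of mice kept in light and dark, *Nr1d1*, *Dbp*, *Tef*, *Nr1d2* and the *Per* genes peak in the course of the day to dusk, whereas *Arntl*, *Clock* and *Cry1* peak in the course of the night to dawn. The first 7 are called day-side genes here and the last 3 night-side genes.

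Promoters were read first, because these elements tie the members to one another. RefSeq windows from 250 bases before to 50 bases after a transcript start (assembly GRCm38.p6) were matched for 9 of the 10 members, in 14 windows, with *Per2* the gene without one. They were searched on both strands for the E-box CACGTG, the E'-box CACGTT, the ROR element TAGGTCA or TGGGTCA, the D-box TTANGTAA and the CRE TGACGTCA. Below are the 250 bases before the start, 5′ to 3′ on the gene's strand, for *Nr1d1* and *Tef*, the members with the largest mean difference from control, for *Cry1* as a night-side gene with E-box matches, and for *Per3* as the gene with D-boxes; capitals mark the matches.
Nr1d1 (chr11:98775378-98775627, minus strand): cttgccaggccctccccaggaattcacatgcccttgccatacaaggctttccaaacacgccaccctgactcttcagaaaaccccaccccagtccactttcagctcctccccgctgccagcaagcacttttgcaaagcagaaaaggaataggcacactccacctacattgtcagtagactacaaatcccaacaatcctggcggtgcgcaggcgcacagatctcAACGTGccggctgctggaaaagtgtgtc
Tef (chr15:81811164-81811413, plus strand): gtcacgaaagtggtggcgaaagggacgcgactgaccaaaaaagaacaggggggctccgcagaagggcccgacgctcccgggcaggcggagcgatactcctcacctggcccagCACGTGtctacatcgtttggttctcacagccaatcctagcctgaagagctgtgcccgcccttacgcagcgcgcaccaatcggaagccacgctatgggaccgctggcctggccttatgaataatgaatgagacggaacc
Cry1 (chr10:85185055-85185304, minus strand): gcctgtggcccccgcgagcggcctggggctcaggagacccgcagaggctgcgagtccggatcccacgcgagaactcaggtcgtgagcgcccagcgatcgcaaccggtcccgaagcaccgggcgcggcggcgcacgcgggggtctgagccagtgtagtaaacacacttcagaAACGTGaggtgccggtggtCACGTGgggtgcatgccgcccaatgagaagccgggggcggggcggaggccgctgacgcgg
Per3 (chr4:151044666-151044915, minus strand): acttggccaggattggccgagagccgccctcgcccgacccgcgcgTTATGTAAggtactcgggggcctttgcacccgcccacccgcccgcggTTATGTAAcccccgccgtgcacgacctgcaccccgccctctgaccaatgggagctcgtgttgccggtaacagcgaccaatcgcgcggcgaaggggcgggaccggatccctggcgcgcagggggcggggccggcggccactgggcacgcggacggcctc

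In *Nr1d1*, the gene of REV-ERB alpha, the match was an E'-box whose first base lay at position −28, counted from the transcript start with upstream positions negative. Both *Tef* windows held an E-box, at −138 in the one printed and at −127 in the other, whose 250 bases all lie in exons of the GENCODE M21 annotation. An E-box also stood at −166 in 1 of 2 *Per1* windows. *Cry1* held an E-box at −60 and an E'-box at −79, and the last 10 bases of its printed stretch are annotated as exon. *Per3* held 2 D-boxes, at −205 and −158. A ROR element was found only in a window of *Arntl*, at position 30 after the start, and no window of *Clock*, *Dbp* or *Nr1d2* held any of the 5 motifs. Of all 32851 windows of this length, 7.15% held the E-box, 4.68% the E'-box, 6.45% the ROR element, 2.32% the D-box and 1.79% the CRE, which no member held. A match describes letters in a window and says nothing of binding, and no match says nothing of elements elsewhere in the gene.

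On the genome of the counts (mm10, that is GRCm38), GENCODE M21 places *Nr1d1* at chr11:98767932-98775333 and *Tef* at chr15:81802421-81826863. That annotation was used here for positions and exons, and the counts may rest on another one. *Dbp* lies at chr7:45705088-45710203 and *Per2* at chr1:91415982-91459324. In GENCODE M21, *Nr1d1* shares 263 of its 3077 exon bases (8.55%) with *Thra* on the opposite strand, and *Dbp* shares 539 of 2993 (18.0%) with *Sphk2*. The strand setting of the counting is not given in the sources used here, so reads of those stretches cannot be told apart between partners. *Thra* was at 31.3 ± 3.92 CPM in control, 32.7 ± 4.45 in sh2 and 27.3 ± 5.72 in sh3 tumors (SD, n = 3 each), and *Sphk2* was at 54.7 ± 8.01, 53.0 ± 2.20 and 52.7 ± 6.13 CPM.

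All 10 clock genes were well counted in every tumor, from 217 counts (*Dbp* in sh3 replicate 1) to 3565 (*Nr1d2* in control replicate 3). Per unit of length, as deposited TPM (reads per base of transcript, scaled to a fixed sum), *Nr1d2*, the second REV-ERB gene, was highest at 62.3 ± 10.7 (SD, n = 9 tumors), followed by *Nr1d1* at 41.7 ± 12.8. Then came the light-induced repressor gene *Per1* at 31.0 ± 6.84 TPM, the PAR bZIP factors *Tef* at 29.4 ± 7.07 and *Dbp* at 25.7 ± 6.33, and the activator *Clock* at 24.6 ± 5.77. The lowest were *Cry1* at 11.9 ± 2.09, *Arntl* at 11.0 ± 1.60, *Per2* at 7.70 ± 2.69 and *Per3* at 7.05 ± 1.81. The step from *Clock* down to *Cry1* held in all 9 tumors, and those from *Nr1d2* to *Nr1d1*, *Nr1d1* to *Per1* and *Arntl* to *Per2* in 8. Neighbours from *Per1* through *Tef* and *Dbp* to *Clock*, *Cry1* and *Arntl*, and *Per2* and *Per3*, kept their order in 6 or 7 of the 9 tumors and were within each other's spread.

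**Figure D1:**
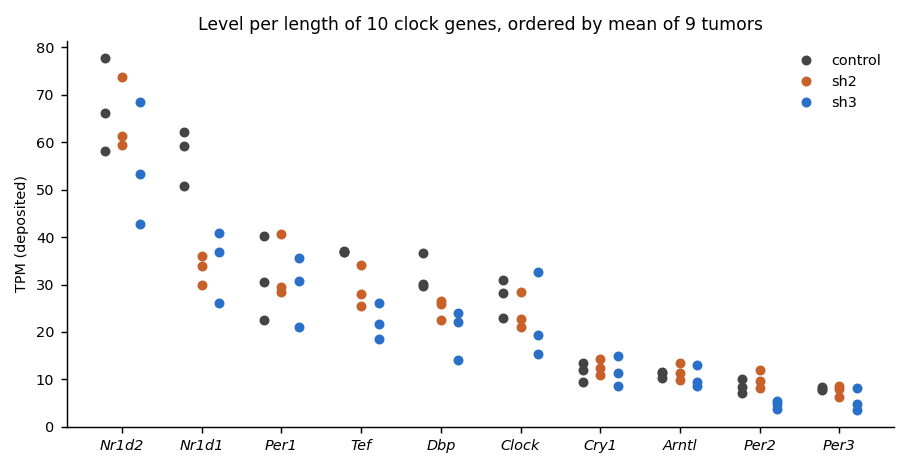
Deposited TPM of each clock gene (horizontal axis, ordered by the mean over 9 tumors), with 1 point per tumor coloured by group. *Nr1d2* runs from 42.7 to 77.7 TPM and *Per3* from 3.56 to 8.54.

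Among the day-side genes, *Nr1d1* was lower in every knockdown tumor than in any control tumor. It stood at 73.7, 69.6 and 56.9 CPM in control replicates 1 to 3, at 41.4, 42.6 and 35.7 in sh2 and at 48.0, 38.9 and 48.6 in sh3. The log2 difference from control was −0.74 ± 0.15 (standard error) with sh2 and −0.56 ± 0.15 with sh3. This is the value by which the gene was chosen, and it was the member with the largest mean difference of both shRNAs, −0.65 ± 0.13. In bulk tumors such a difference can come from fewer cells of a type or from less RNA per cell, and these cannot be told apart. *Nr1d2*, which makes the other REV-ERB repressor, overlapped between groups: it was at 116, 130.5 and 146 CPM in control, 143, 129 and 119 in sh2, and 135, 107 and 118 in sh3. Its log2 difference from control was −0.00 ± 0.14 with sh2 and −0.12 ± 0.14 with sh3. Whether the REV-ERB genes differed from each other in this respect was not tested.

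*Tef*, whose product activates D-box genes, was the other member with all 6 knockdown tumors below all 3 controls. Its levels were 70.7, 70.1 and 66.5 CPM in control, 63.4, 57.0 and 49.1 in sh2, and 49.5, 44.6 and 46.0 in sh3. The controls lay within a narrow band and the sh3 tumors at the bottom, with 1 sh2 tumor among them. The log2 difference from control was −0.29 ± 0.13 with sh2 (−0.19 without sh2 replicate 3) and −0.57 ± 0.13 with sh3. *Dbp*, its close relative and a strongly rhythmic output gene, was at 26.4, 21.6 and 20.2 CPM in control, 18.1, 20.2 and 16.3 in sh2, and 10.0, 21.8 and 17.6 in sh3. The *Dbp* groups touched or overlapped on this scale, and its log2 differences were −0.32 ± 0.26 and −0.46 ± 0.27. The sh3 value of *Dbp* was spread by sh3 replicates 1 and 2: it was −0.20 without the first and −0.72 without the second. Deposited TPM carries no TMM factor and is also scaled to a sum of reads per base. On that scale all 6 knockdown tumors lay below all 3 controls in *Dbp*, at 22.4 to 26.4 in sh2 and 14.0 to 24.1 in sh3 against 29.7 to 36.7 in control. Which step of the scaling set TPM and CPM apart was not tested. The TPM scale set other members lower too in some knockdown tumors. *Nr1d2* was at 107 CPM and 42.7 TPM in sh3 replicate 2, beside 116 CPM and 58.2 TPM in control replicate 1.

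The *Per* genes, which encode the inhibitors of BMAL1 and CLOCK, went separate ways. *Per1* was spread widely inside each group, at 80.9, 60.9 and 42.9 CPM in control, 55.7, 63.2 and 82.6 in sh2, and 71.0, 53.7 and 69.0 in sh3, with log2 differences of 0.13 ± 0.24 and 0.07 ± 0.24 from control. *Per2* was at 17.7, 20.985 and 23.8 CPM in control, 23.5, 31.6 and 20.7 in sh2, and 11.8, 11.6 and 15.1 in sh3. All 3 sh3 tumors lay below all other tumors in *Per2*, and its log2 difference from control was 0.28 ± 0.21 with sh2 (0.09 without sh2 replicate 2) against −0.69 ± 0.21 with sh3. *Per3* was at 21.8, 19.9 and 19.7 CPM in control, 21.5, 22.1 and 16.2 in sh2, and 21.3, 11.6 and 13.6 in sh3. One sh3 tumor lay among the controls and the other two below them, and the log2 differences of *Per3* were −0.04 ± 0.24 and −0.40 ± 0.24. Without sh3 replicate 1 the latter was −0.70, and without sh3 replicate 2 it was −0.23.

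The night-side genes overlapped between all groups. *Arntl*, the gene of BMAL1, was at 12.8, 14.4 and 13.4 CPM in control, 12.0, 14.9 and 17.0 in sh2, and 16.2, 13.7 and 13.1 in sh3, with log2 differences of 0.12 ± 0.18 and 0.08 ± 0.18. *Clock* was at 97.7, 119 and 124 CPM in control, 117, 103 and 90.4 in sh2, and 138, 82.0 and 91.5 in sh3, and both its log2 differences were −0.13 ± 0.21. *Cry1*, which encodes an inhibitor of BMAL1 and CLOCK, was at 12.3, 15.3 and 16.3 CPM in control, 18.0, 17.0 and 14.4 in sh2, and 19.1, 14.0 and 16.3 in sh3. Its log2 differences were 0.17 ± 0.19 with each shRNA.

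**Figure D2:**
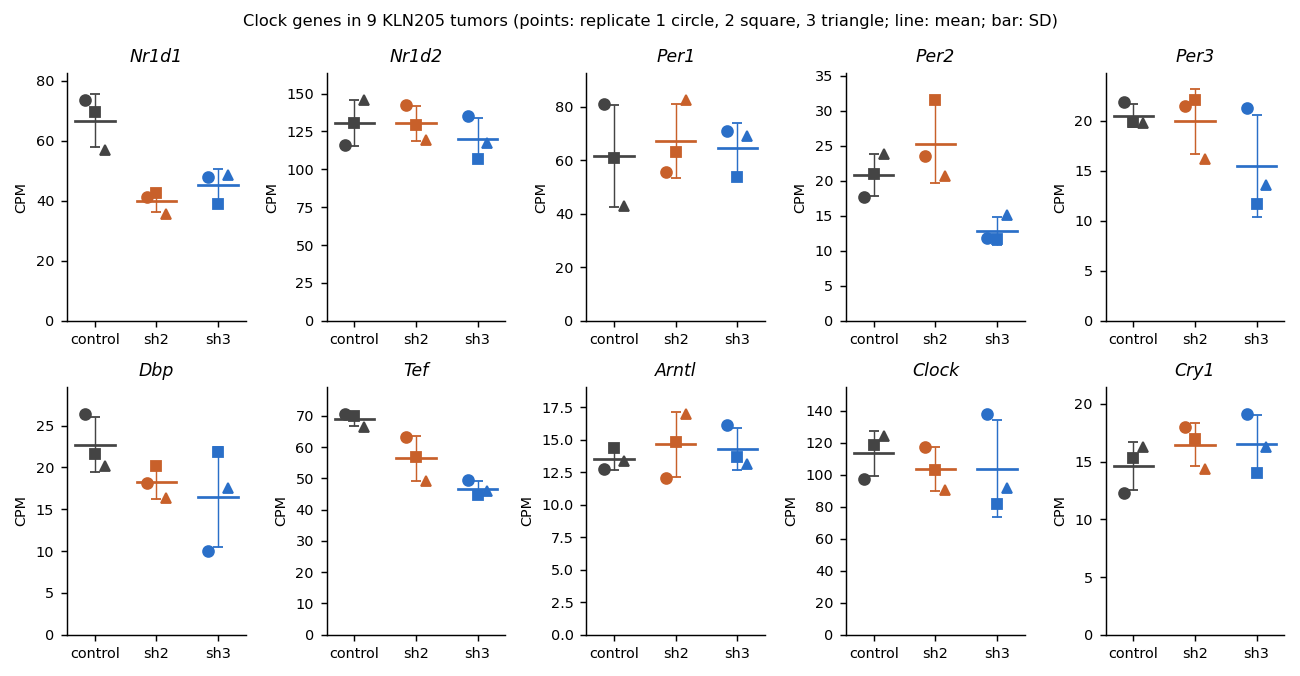
Level of each clock gene (CPM, linear axis from 0) in the 3 groups, with a symbol per replicate, a line at the mean and a bar of 1 SD (n = 3). *Nr1d1* and *Tef* are lower in all 6 knockdown tumors than in the controls, *Per2* is lowest in the 3 sh3 tumors, and *Arntl*, *Clock* and *Cry1* overlap.

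Counted over the list, 2 of 10 members (*Nr1d1* and *Tef*) had all sh2 tumors below all controls, against 5.83% of all genes tested. The count was 3 of 10 in sh3 (*Per2* joined them), against 5.44% of all genes, and 2 of 10 when all 6 knockdown tumors had to lie below the controls, against 0.958%. At an unadjusted p under 0.05 from edgeR's quasi-likelihood test, the same 2 members were lower in sh2 (3.52% of all genes passed, in either direction), the same 3 in sh3 (6.63%) and the same 2 in the mean of both (4.09%). Since the choice of *Nr1d1* used these contrasts, nothing is read from the counts. With the Benjamini-Hochberg adjustment over all genes (FDR under 0.05), 0 members and 0% of genes passed in each of the 3 comparisons with control. DESeq2's Wald test called 0.0136% of genes with sh2, 0.278% with sh3 and 0.0611% in the mean of both, and these included 0 members, *Tef* and *Nr1d1* respectively. The members' median log2 difference was −0.02 with sh2 and −0.26 with sh3, beside 0.01 and 0.03 over all genes. Split by limb, the 7 day-side genes had a median of −0.04 with sh2 and −0.46 with sh3, and the 3 night-side genes 0.12 and 0.08. Both comparisons share the control tumors.

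**Figure D3:**
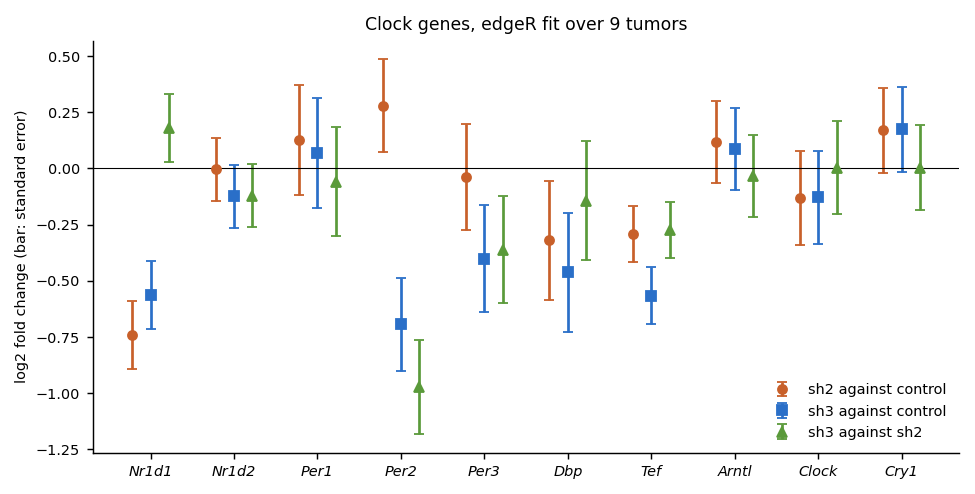
Log2 fold change of each clock gene from the edgeR fit over 9 tumors, with bars of 1 standard error, for sh2 and sh3 against control and for sh3 against sh2. *Per2* is the gene where sh3 and sh2 lie farthest apart, at −0.97 ± 0.21, and the 3 night-side genes on the right lie between −0.13 and 0.17.

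The sh3 and sh2 tumors, in which the same gene was targeted, were compared directly. *Per2* was lower in sh3 than in sh2 by a log2 difference of −0.97 ± 0.21, with no overlap between the groups. The difference did not pass edgeR's quasi-likelihood test over all genes (unadjusted p = 0.00116, FDR = 0.673), and the exact two-sided permutation test gave p = 0.1, the smallest that 3 tumors against 3 allow. DESeq2's Wald test gave *Per2* an FDR of 0.0157, and over the 13 alternatives run its FDR ranged from 0.0157 to 0.970. Without sh3 replicate 1, 3 members were at an unadjusted p under 0.05 in place of 1, while the number over all genes rose from 1057 of 14725 to 2832 of 14911. By p, *Tef* came next, at −0.27 ± 0.13 (edgeR FDR = 0.673, exact permutation p = 0.2). The other 8 members ran from −0.36 ± 0.24 for *Per3* to 0.18 ± 0.15 for *Nr1d1*, with exact permutation p from 0.2 to 1. In this comparison 1 of 10 members had all sh3 tumors below all sh2 tumors, against 4.62% of all genes. The edgeR test at an unadjusted p under 0.05 likewise took 1 member, against 7.18% of genes, and at an FDR under 0.05 it took 0 members and 0% of genes. DESeq2 called 0.326% of genes, *Per2* among them.

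Sums of cell type markers were set beside these values. The summed level of 4 fibroblast genes (*Col1a1*, *Col1a2*, *Dcn* and *Pdgfra*, none at 0 in any tumor) was 2167 to 3738 CPM in control, 1712 to 2726 in sh2 and 984 to 1468 in sh3. The sh3 tumors, lowest in *Per2* and low in *Tef*, were thus also lowest in fibroblast transcripts. Within each group the tumor with the highest fibroblast sum had the lowest *Per2* (control replicate 1, sh2 replicate 3 and sh3 replicate 2). In sh3 this was by a narrow gap, at 11.6 CPM in replicate 2 against 11.8 in replicate 1. The 6 carcinoma genes (*Epcam*, *Trp63* and 4 keratins), which mark the labelled cell type and were present in every tumor, overlapped, at 2062 to 3274, 2379 to 4481 and 2551 to 2711 CPM. Skeletal muscle genes (4 of 4 detected) ranged from 12.8 to 2306 CPM within control, from 3.17 to 85.6 in sh2 and from 67.4 to 769.6 in sh3. Skin keratinocyte genes (3 of 4 in the table, *Krt1* at 0 in some tumors) reached 92.9 CPM in control replicate 1, the tumor with the highest *Nr1d1*, *Dbp* and *Tef*, against at most 7.06 in the knockdown tumors. The other 2 controls, whose *Nr1d1* and *Tef* were also above every knockdown tumor, were at 4.10 and 4.67 CPM in these genes. Adipocyte genes (4 of 4 in the table, with *Adipoq*, *Plin1* and *Cidec* at 0 in some tumors) were at 23.6 to 50.4 CPM in control, 8.12 to 35.7 in sh2 and 8.30 to 17.9 in sh3. The sums for endothelium (3 genes, 120.1 to 211 CPM), macrophages (3 genes, 233 to 774), neutrophils (3 genes, 49.2 to 162) and T cells (4 genes, 19.2 to 128) each overlapped between control and sh3 tumors. Between control and sh2 tumors the macrophage sum did not overlap, by a narrow gap, at 549.85 to 574 CPM in control and 304 to 548.9 in sh2. Within sh2, replicate 2 had the lowest macrophage sum and the highest *Nr1d1*. The sh3 tumors, also below every control in *Nr1d1* and *Tef*, were at 233, 774 and 592 CPM in replicates 1 to 3, the last 2 above every control. The part of host cells in the clock gene values was not tested.

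How far apart the tumors lay was set against other genes. With group means removed, the SD of log2 CPM was 0.12 for *Tef*, lower than in all but 7.09% of genes tested, 0.16 for *Nr1d2*, 0.17 for *Nr1d1*, 0.18 for *Arntl* and 0.20 for *Cry1*. It was 0.25 for *Per2*, 0.28 for *Clock*, 0.30 for *Per3*, 0.34 for *Per1* and 0.36 for *Dbp*, the last at the percentile of 60.9, beside a median of 0.29 over all genes. From the lowest to the highest of the 9 tumors, *Per2* spanned 2.72-fold, *Dbp* 2.63-fold and *Nr1d1* 2.06-fold, whereas *Arntl* spanned 1.41-fold and *Nr1d2* 1.36-fold.

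The tumors at the extremes differed from gene to gene. Control replicate 1 was highest in *Nr1d1*, *Dbp* and *Tef* and lowest in *Cry1*. Replicate 1 of sh3 was highest in *Clock* and *Cry1* and lowest in *Dbp*. That tumor also had the lowest endothelium, macrophage and neutrophil sums of all 9. Its skeletal muscle sum, 769.6 CPM, was the highest among the knockdown tumors. Replicate 2 of sh3, the library with the fewest counts and the most *Rn45s*, was lowest in 5 genes of both sides (*Nr1d2*, *Per2*, *Per3*, *Tef* and *Clock*). Replicate 3 of sh2 was highest in *Per1* and *Arntl*, which peak at different times in entrained tissue, and lowest in *Nr1d1*.

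As a summary of phase in a single tumor, the mean log2 CPM of the 3 night-side genes minus that of the 7 day-side genes was taken, a difference in which the scaling of the library cancels. It was −0.91, −0.59 and −0.48 in control replicates 1 to 3, −0.47, −0.54 and −0.40 in sh2, and 0.02, −0.32 and −0.38 in sh3. Control replicate 1 and sh3 replicate 1 stood at the 2 ends, the lowest sh3 tumor lay close to the highest sh2 tumor (−0.38 against −0.40), and control and sh2 overlapped. The tumors at the 2 ends were also the highest and the lowest, in that order, in the endothelium and neutrophil sums. Whether cell makeup bears on this summary was not tested. With *Npas2* added to the night-side genes all 3 groups overlapped, at −1.93 to −1.72 in control, −1.81 to −1.57 in sh2 and −1.81 to −1.35 in sh3. The group means were −0.66 ± 0.23 in control, −0.47 ± 0.07 in sh2 and −0.23 ± 0.22 in sh3 (SD, n = 3), so that sh3 exceeded control by 0.43 and sh2 by 0.24. Without *Nr1d1* the means were −0.56, −0.47 and −0.16. Single tumors weighed on these values: sh2 exceeded control by 0.19, but by 0.06 without control replicate 1, and sh3 exceeded sh2 by 0.12 without sh3 replicate 1. No test was made, because the members were chosen with results in view.

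**Figure D4:**
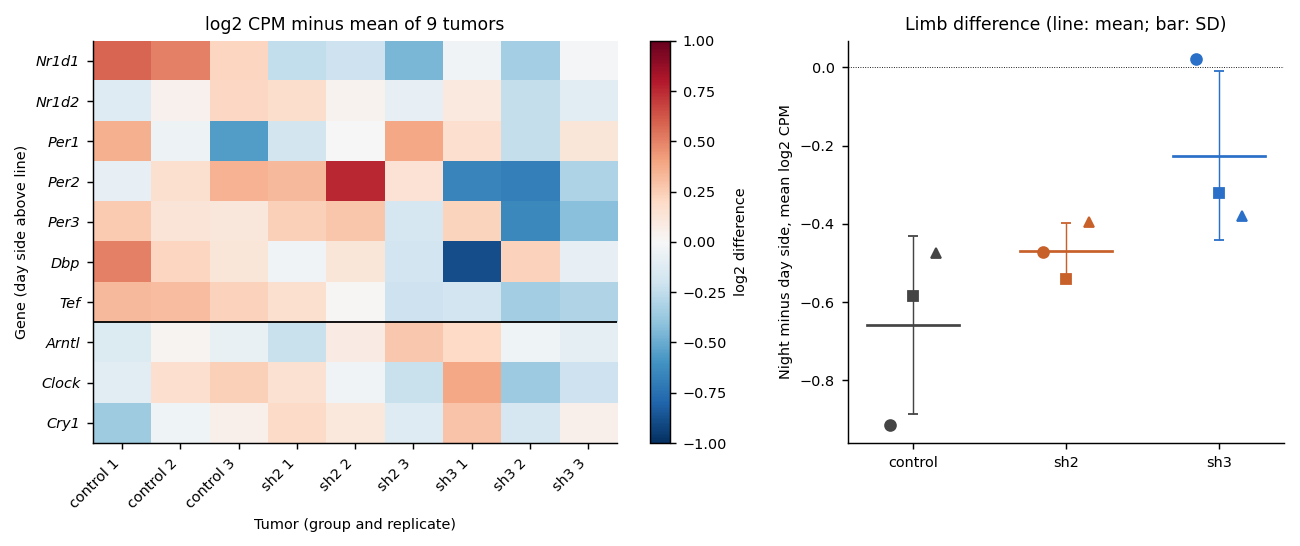
Left, log2 CPM of each clock gene in each tumor minus its mean over 9 tumors (red above, blue below), with day-side genes above the line and night-side genes beneath; right, night-side minus day-side mean log2 CPM per tumor, with a symbol per replicate, group mean and SD. Control replicate 1 is at −0.91 and sh3 replicate 1 at 0.02, with the other 7 tumors between −0.59 and −0.32.

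Pairs of genes gave different orders of the tumors. The log2 ratio of *Arntl* to *Dbp*, genes of opposite phase in entrained tissue, was −1.04, −0.58 and −0.59 in control, −0.58, −0.44 and 0.06 in sh2, and 0.68, −0.67 and −0.42 in sh3. Only sh3 replicate 1 and sh2 replicate 3 had more *Arntl* than *Dbp* reads, and the other 7 tumors fell between −1.04 and −0.42. The log2 ratio of *Arntl* to *Nr1d1*, in contrast, separated control (−2.52, −2.27 and −2.08) from sh2 (−1.77, −1.51 and −1.07) and sh3 (−1.56, −1.50 and −1.88), which follows from the choice of *Nr1d1*. *Per2* over *Per1*, whose peaks lie a few hours apart, was a ratio of CPM of 0.219, 0.344 and 0.554 in control, 0.422, 0.4996 and 0.251 in sh2, and 0.167, 0.217 and 0.220 in sh3. The sh3 tumors were thus close to one another in this ratio, near control replicate 1.

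In entrained tissue *Arntl* runs opposite to the day-side genes, and its relation to each other member was tested over the 9 tumors. Pearson's r of log2 CPM between *Arntl* and *Dbp* was −0.57 (exact permutation p = 0.107) and Spearman's rho −0.40 (exact permutation p = 0.291). Adjusted over the 9 relations of *Arntl* with the other members, *Nr1d1* among them, the p was 0.833 for r and 0.867 for rho. Without sh2 replicate 3 and sh3 replicate 1, the tumors farthest from the median of *Arntl*, r was 0.13. Leaving out those 2 tumors also narrows the range of *Arntl*, which can lower r by itself, so the fall does not tell what the relation rests on. Removing group means left r at −0.56. With *Nr1d1*, which was chosen by its group difference, *Arntl* had an r of −0.34 and a rho of −0.38, given with no p, and r was 0.03 without the same 2 tumors and −0.18 with group means removed. With *Tef*, r was −0.40 and rho −0.33 (exact permutation p = 0.278 and 0.385), and without those tumors r was −0.10. *Per1* lay on the other side, with an r of 0.43 and a rho of 0.37 (exact permutation p = 0.249 and 0.336), and −0.05 without the 2 tumors. The other 5 relations had r between −0.09 and 0.13. The lowest adjusted p of the 9 was 0.833, and 9 tumors of 3 groups limit what such a test can show.

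**Figure D5:**
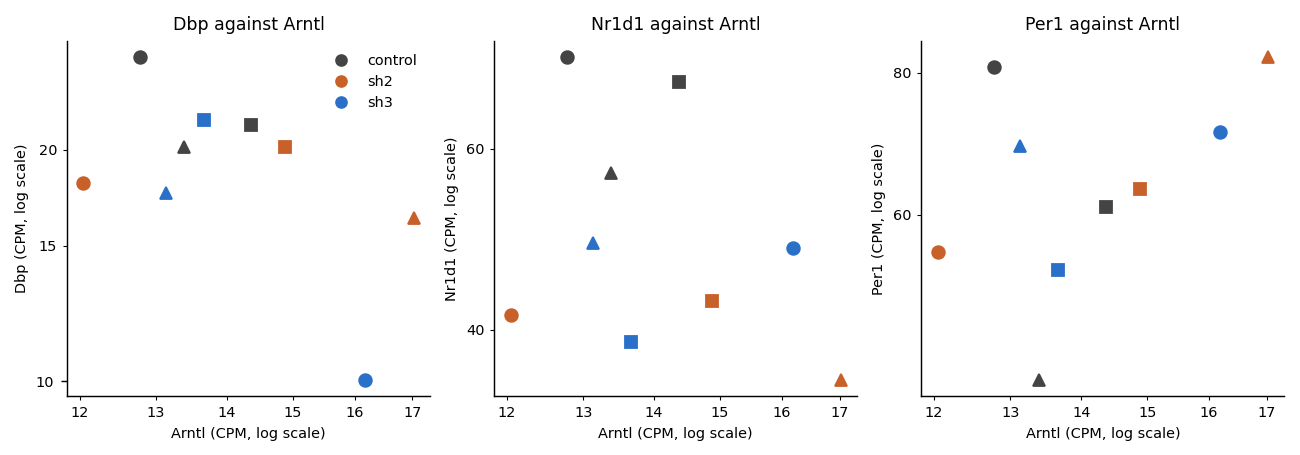
*Dbp*, *Nr1d1* and *Per1* against *Arntl* (CPM, both axes logarithmic), 1 symbol per tumor (circle, square and triangle for replicates 1 to 3, coloured by group). In the *Dbp* panel, sh3 replicate 1 at 10.0 CPM and sh2 replicate 3 at 16.3 CPM stand at the right, and over the other 7 tumors r is 0.13.

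Pairs within the list are given as a description with no p, over 9 tumors in 3 groups, where values of a tumor share its library. The highest r was that of *Clock* with *Nr1d2*, the gene of a repressor of *Clock*, at 0.88, and at 0.93 with group means removed. Next came *Tef* with *Per3* (0.74, and 0.72 with group means removed), *Clock* with *Per3* (0.74 and 0.82), *Tef* with *Nr1d1* (0.73 and 0.65), *Per3* with *Nr1d2* (0.71 and 0.63), *Cry1* with *Nr1d2* (0.70 and 0.97) and *Cry1* with *Clock* (0.66 and 0.92). These pairs joined genes of the same side as well as of both sides. *Dbp*, which rises at nearly the same time as *Nr1d1* and *Tef* in entrained tissue, had an r of 0.49 with *Tef* and 0.40 with *Nr1d1* over all tumors, but of −0.16 and −0.10 with group means removed. With *Per3* and *Nr1d2* its r was −0.08 and −0.32 over all tumors and −0.64 and −0.71 with group means removed. Over all tumors *Dbp* was most opposed to *Cry1* (r = −0.73), and with group means removed to *Clock* (r = −0.84).

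No clock gene was among those whose pattern over tumors was most like that of *Dbp* or *Arntl*. The ranking ran from the highest positive r, so members running opposite to these genes could not stand near its top. Among the 13604 genes averaging 1 CPM or more, those near *Dbp* included *Brdt* (r = 0.96), *E130311K13Rik* (0.95), *Cers4* (0.94) and *Xxylt1* (0.93). The nearest member was *Tef*, at rank 2741, followed by *Nr1d1* at 3523 and *Per2* at 3843. Nearest to *Arntl* were *Hoxb9* (r = 0.90), *Sh3yl1* (0.89), *Rab17* (0.89), *Hs6st1* (0.87) and *Mmgt2* (0.87), and the nearest member was *Per1*, at rank 1746. Toward the opposed end, *Cry1* stood at rank 12818 for *Dbp* (r = −0.73) and *Dbp* at rank 12746 for *Arntl* (r = −0.57).

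Other genes of the clock were described from a list of 16, of which 15 passed the filter (*Rorb* was at 0.417 CPM or less in control and sh2 and at 0.559 or less in sh3). None passed an FDR under 0.05 in edgeR in any comparison. At an unadjusted p under 0.05, 0 passed with sh2, 3 were lower with sh3 (*Cry2*, *Bhlhe41* and *Cipc*, beside 6.63% of all genes in either direction) and 2 were lower in sh3 than in sh2 (*Bhlhe41* and *Cipc*, beside 7.18%). With sh3, 12 of the 15 had a negative log2 difference from control and the median was −0.24, and with sh2 it was 8 of 15 and −0.01, beside 45.1% and 48.2% negative over all genes. *Npas2*, a partner of BMAL1 that can stand in for CLOCK, was scarce but above the floor of 3 counts. It was at 0.860 to 1.41 CPM in control, 0.632 to 1.30 in sh2 and 0.428 to 1.27 in sh3. *Arntl2*, the paralog of *Arntl*, was far above *Npas2* and overlapped between groups, at 60.6 to 100.1, 68.7 to 111 and 52.5 to 147 CPM. *Cry2*, which encodes a partner of PER proteins, was at 7.67 to 8.80 CPM in control, 6.91 to 7.44 in sh2 and 5.33 to 6.01 in sh3, 3 bands without overlap, and its log2 difference was −0.22 ± 0.19 with sh2 and −0.55 ± 0.19 with sh3. *Rora*, an activator at ROR elements, was at 9.60 to 12.3 CPM in control, 4.98 to 8.80 in sh2 and 6.84 to 12.0 in sh3. Chosen after their values were seen, *Bhlhe41*, an E-box repressor, and *Cipc*, an inhibitor of CLOCK, were lower in all sh3 tumors than in any other, at 14.8 to 19.4 CPM against 21.1 or more and at 43.7 to 44.8 CPM against 51.5 or more.

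The 5 output genes of the clock had medians of −0.14 with sh2 and −0.08 with sh3, and 0 passed an FDR under 0.05 in edgeR. At an unadjusted p under 0.05, 1 passed (*Hlf*, lower with sh2), beside 3.52% of all genes in either direction. *Hlf*, the third PAR bZIP factor beside *Dbp* and *Tef*, was scarce, at 0.937 to 1.97 CPM in control, 0.483 to 0.758 in sh2 and 0.647 to 1.20 in sh3. *Nfil3*, the repressor at D-boxes, was at 25.6 to 29.5, 28.9 to 32.2 and 21.1 to 33.9 CPM. *Usp2*, a rhythmic output gene, was at 5.92 to 11.1, 3.29 to 6.22 and 3.33 to 12.3 CPM. *Noct*, listed as *Ccrn4l*, which encodes a rhythmic protein of the deadenylase family, was at 16.5 to 20.4, 14.8 to 18.1 and 14.6 to 18.0 CPM, and both groups of knockdown tumors overlapped with control.

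Signals that reset peripheral clocks also have target genes, and 3 lists of these were counted. Of 8 glucocorticoid response genes, 7 immediate early genes and 6 temperature response genes, 0 passed an FDR under 0.05 in edgeR in any of the 4 comparisons. At an unadjusted p under 0.05, 0 of them passed with sh2, beside 3.52% of all genes in either direction. With sh3, 2 passed, both higher, beside 6.63% of all genes. These were *Tsc22d3* and, named after its values were seen, the heat shock gene *Dnajb1* at 78.1 to 94.0 CPM against at most 75.7 in other tumors. In sh3 against sh2 the same 2 were higher and *Fos* was lower, beside 7.18% of all genes. In the mean of both shRNAs against control, *Tsc22d3* was higher and *Zbtb16* lower, beside 4.09%. With sh3, the medians were 0.02, 0.02 and 0.38 in that order, and with sh2 they were 0.09, −0.07 and 0.08. *Tsc22d3*, a target of the glucocorticoid receptor, was at 41.6 to 60.1 CPM in control, 46.5 to 68.2 in sh2 and 78.7 to 81.2 in sh3, above both other groups. *Fkbp5*, another such target, was at 37.4 to 48.7, 44.2 to 84.3 and 39.0 to 50.5 CPM. *Fos* was at 21.5 to 30.0, 27.2 to 63.8 and 12.8 to 26.2 CPM, and the cold-inducible *Cirbp*, a gene that also follows body temperature rhythms, at 46.0 to 66.3, 44.4 to 68.8 and 37.2 to 52.6 CPM. With sh3 the log2 difference of *Cirbp* was −0.44 ± 0.22, while the other 5 temperature response genes were positive, *Rbm3* among them at 0.33 ± 0.24. That list mixes genes induced by cold and by heat, so its median has no single direction as a temperature response. *Per1*, which carries a glucocorticoid response as well, had overlapping groups: its means were 61.6 ± 19.0, 67.2 ± 13.9 and 64.5 ± 9.49 CPM (SD, n = 3) in control, sh2 and sh3.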

How the data were processed

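RNA of 9 tumors was sequenced from poly-A selected, strand-marked libraries. Per the labels, the authors checked reads with FastQC, aligned them to mm10 with STAR 2.5.3a, and deposited raw counts per gene from featureCounts. Beside them the authors deposited a normalized signal (CPM), used here only as a check, and TPM, used here for levels per length. The deposited columns of log2 fold changes, likelihood ratios, p-values and FDR hold the authors' edgeR comparisons and were not used.

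Groups came from the sample titles, and nothing states that same-numbered tumors were matched. The raw counts were fitted in R 4.3.3 with edgeR 4.0.16 (filterByExpr by group, TMM, robust quasi-likelihood) over all 9 tumors with 1 coefficient per group, and p-values were adjusted by Benjamini-Hochberg over 14725 genes. The edgeR p-values set a group difference against the spread between tumors within groups, estimated over all 9 tumors. A log2 difference is the fitted value, its standard error that value over the root of F. Log2 CPM for sums over members, spread and correlations used a prior count of 2. Correlations were tested by exact permutation over all 362880 pairings, and sh3 against sh2 also over all 20 splits. The fits were tested on simulated counts. Alternatives were DESeq2 1.42.0, its size factors in edgeR, the likelihood ratio test, 2 other filters (none, or a minimum of 10 counts per tumor), fits without the third group, the replicate block, a prior count of 0.5, and each tumor left out.

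Members, lists and tests were chosen with earlier results of these data known. The text names all 10 members, then up to 4 genes per list in listed order, and for likeness the 5 genes with the highest r, of which 1 is not reported here. Promoters are from RefSeq, and positions from GENCODE M21 on GRCm38. Python 3.11.15 (pandas 2.3.3, numpy 2.4.6) made the tables, matplotlib 3.10.9 the plots.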

Additional observations from a re-analysis of the deposited data

How the results depend on the processing

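Over 40 log2 differences of members (10 genes in 4 comparisons), 27 kept their direction under every alternative run, and the 13 that turned in some were at most 0.14 in size. The number of genes past an FDR under 0.05 was 0 in each comparison with edgeR's quasi-likelihood test, but DESeq2's Wald test gave 2 with sh2, 41 with sh3, 9 in the mean of both and 48 in sh3 against sh2. The edgeR likelihood ratio test gave 8 with sh3, 8 in the mean of both and 14 in sh3 against sh2, and 0 with sh2. The cause was not tested. Measured by *Arntl* against *Dbp* alone, the excess of sh2 over control in night-side against day-side level was 0.42 in place of 0.19. With single tumors left out, the members at an unadjusted p under 0.05 numbered 1 or 2 with sh2, 3 to 5 with sh3 (5 without sh3 replicate 1, 4 without sh3 replicate 2) and 1 to 3 in sh3 against sh2 (3 without sh3 replicate 1, 2 without sh2 replicate 3). Without sh3 replicate 1, the genes at that p also rose over the whole table, to 2154 of 14911 with sh3 and 2832 in sh3 against sh2, from 976 and 1057 of 14725. Tumors with the same replicate number did not deviate together (mean r = −0.0992 over 9 pairs, from −0.235 to 0.0863), so the numbers are not taken to pair them. With the replicate block, 0 genes passed in all 4 comparisons, and *Nr1d1* was at −0.74 with sh2 and −0.56 with sh3. With 3 tumors a group, no exact test of one group against another can go below p = 0.1, and the hour of harvest, the strand setting of the counting and the cell makeup of each tumor limit what the clock gene levels show.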
